A study of Caenorhabditis elegans with 9 samples.

Results

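The data are coding-sequence read counts from 4 RNA-seq libraries of Caenorhabditis elegans in which RPOA-2, a core subunit of RNA polymerase I, was or was not targeted for degradation in most tissues for 24 h. In both groups the rpoa-2 gene encoded a degron::GFP::rpoa-2 fusion, and eggs were grown at 16 °C. The depleted group (n = 2) also carried the eft-3p::TIR1 transgene and was plated with 1 mM of the auxin IAA. The control group (n = 2) had neither the transgene nor IAA, so effects of TIR1 and IAA themselves cannot be told apart from those of losing RPOA-2. The 5 other libraries of the series, 3 of depletion in the hypodermis (the same fusion with col-10p::TIR1 and 1 mM IAA, 24 h) and 2 of controls taken at 18 h without TIR1 or IAA, entered the statistical fit, and the hypodermal ones are shown where they differ. The source label is whole worm, the titles say embryo, and the stage at harvest is not given.

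Genes were counted as measured here when listed in at least 2 of the 4 libraries compared, which held for 10198 of the 13246 genes listed in any of the 9 libraries. The deposited table lists no count under 3, so a gene called unlisted had 0, 1 or 2 counts.

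RNA polymerase I makes the large ribosomal RNA precursor in the nucleolus, the first step in building ribosomes. In the auxin-inducible degron system the plant F-box protein TIR1 binds a degron-tagged protein once auxin is present and has it ubiquitinated and broken down by the proteasome. The eft-3 promoter drives expression in most somatic tissues, and the col-10 promoter drives it in the hypodermis, the epidermis that secretes the cuticle. RNA polymerase I activity is coupled in animal cells to ribosomal protein production, nucleolar structure and growth.

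The controls were the shallower libraries, with 324321 and 506659 counts against 1298047 and 1084894 in the depleted libraries. The smallest listed count, 3, equals 9.55 and 6.04 CPM (counts per 1000000 after TMM scaling) in the controls but 2.26 and 2.58 CPM in the depleted libraries. Weakly expressed genes could therefore be seen to fall less readily than to rise, and 1123 genes were listed in the depleted libraries only against 67 in the controls only. Whether replicate libraries stem from separate cultures is not stated in the labels, and the p-values cover only how far these samples vary, possibly for technical reasons. The rpoa-2 mRNA (chromosome I, 9280963 to 9286577), which the degron does not target, stood at 156 and 259.7 CPM in the controls and 355 and 369 CPM under depletion (log2 fold change 0.77 with SE 0.25 and edgeR adjusted p = 0.0423). Leaving out control replicate 1, global replicate 1 or global replicate 2 ended that call (edgeR adjusted p = 0.408, 0.186 and 0.238), as did DESeq2 (adjusted p = 0.0634). The mRNA does not show how much protein was lost.

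Of the genes counted, 7980 had enough reads to test, and 676 passed at an edgeR adjusted p below 0.05, 8.47% of those tested. The rises numbered 276 (3.46%) and the falls 400 (5.01%). The median log2 fold change was 0.01 over all tested genes, 1.499 over those that rose and -1.52 over those that fell. More than 4-fold changes were called for 87 genes higher and 142 lower, and 37 of the rises were of genes unlisted in both controls. With the library total as the only scaling the split became 360 higher and 337 lower and the median moved to 0.11, and with unlisted counts entered as 0 instead of 1 it became 285 and 249 with a median of 0.10. Single libraries mattered: without control replicate 1, control replicate 2, global replicate 1 or global replicate 2 the counts were 387, 501, 360 and 292. Numbers given as without each library keep this order throughout. The genes that passed in the full fit and in each of those 4 fits numbered 200 (2.51%), with 76 higher (0.952%) and 124 lower (1.55%), and genes said to rise or fall come from these unless a lost call is stated. Of the falls, 45 were in the lists of cuticle collagens and of molting and apical matrix genes. Calls were more frequent among abundant genes: with the tested genes cut into 4 equal classes by mean CPM, 4.06% of the lowest class passed against 17.9% of the highest.

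**Figure D1:**
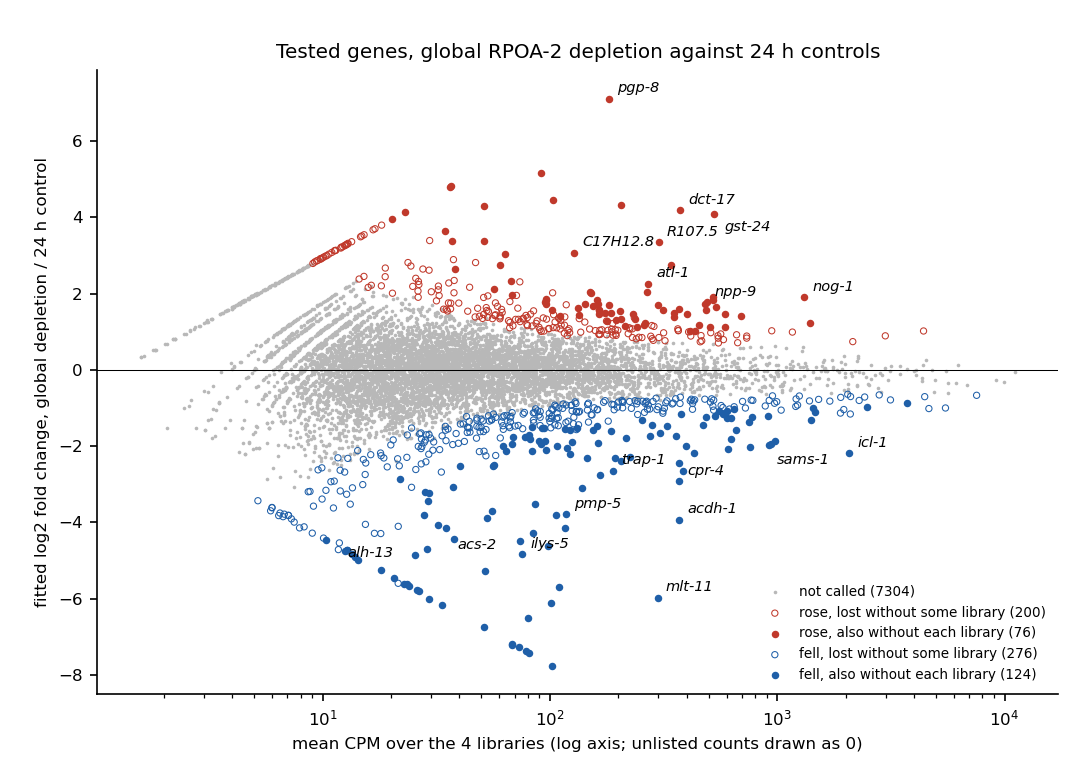
Fitted log2 fold change of each tested gene (y axis) against its mean CPM over the 4 libraries (x axis, log scale), with filled points for the 76 rises and 124 falls that also passed with each library left out and open points for the other calls. Rises reach highest for pgp-8, falls outside the cuticle include ilys-5, acdh-1 and cpr-4, and the straight edges at the left are genes unlisted in 1 group.

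Several genes outside the cuticle rose from low or unlisted levels. The ABC transporter gene pgp-8 (chromosome X, 10859351 to 10864422), a P-glycoprotein-type efflux pump, was unlisted in both controls and stood at 348 and 377 CPM under depletion, at least 46.5-fold higher (edgeR adjusted p = 3.49e-15). The gene dct-17 (chromosome V, 13727765 to 13730776) went from 25.5 and 48.3 CPM to 679 and 749 CPM (log2 fold change 4.198 with SE 0.31 and edgeR adjusted p = 1.53e-14). Both depleted libraries lay far above both controls, while the 3 hypodermal libraries stayed at 53.9, 53.6 and 60.9 CPM. M01G12.9 (chromosome I, 12109096 to 12112505) had a like profile, with 19.1 CPM in 1 control, none listed in the other, 173 and 220.4 CPM under global depletion and 15.4, 13.4 and 27.2 CPM under hypodermal depletion (log2 fold change 4.45 with SE 0.51 and edgeR adjusted p = 7.83e-09 against the controls). R107.5, chosen after its values were seen, rose from 60.5 and 48.3 to 553 and 543 CPM (log2 fold change 3.35 with SE 0.29 and edgeR adjusted p = 5.38e-12).

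Among the other large rises, F08G2.5 and the neighbouring genes ZK1055.7 and ZK1055.6 rose by 5.15, 4.31 and 4.30 on the log2 scale. The depleted libraries held 194 and 165 CPM of F08G2.5 and 348 and 435 CPM of ZK1055.7. For these 3 the hypodermal libraries lay between the controls and the global libraries, at 41.9, 36.9 and 51.8 CPM for F08G2.5 and 119.9, 157 and 212 CPM for ZK1055.7. The genes K11H12.4, gadr-6, F19B10.13 and ZK938.3 were unlisted in both controls and rose at least 9.35-, 9.41-, 5.90- and 5.21-fold. The sources used here do not give whether reads were assigned by strand. Genes that overlap another coding gene, such as gadr-6 with gpdh-1 and ZK1055.6 with hcp-1, therefore cannot be told apart from their partners. Not every such overlap is named below. Among the nuclear pore genes, npp-9 overlaps clpf-1, npp-12 overlaps mam-8, npp-21 overlaps osm-8, and npp-3 overlaps K12D12.4 and col-84.

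Genes of the nuclear envelope were among those that rose. Of 37 tested genes for the nuclear pore and lamina, 12 rose (32.4%, against 3.46% of all tested genes), the other 25 did not pass, and 33 of the 37 estimates were above 0, with a median log2 fold change of 0.55. The smallest adjusted p of the list was that of npp-9 (chromosome III, 3400644 to 3404370), the worm Nup358, a Ran-binding filament protein on the cytoplasmic face of the pore. Its level was 213 and 225 CPM in the controls and 769.8 and 746 CPM under depletion (log2 fold change 1.79 with SE 0.24 and edgeR adjusted p = 2.13e-07). The nuclear basket gene npp-21, a homologue of Tpr, stood at 232 and 282 CPM in the controls and 776 and 853 CPM under depletion (log2 fold change 1.65, SE 0.23, edgeR adjusted p = 8.28e-07). For npp-12, the membrane-anchored gp210, the levels were 143 and 139 CPM in the controls and 449 and 462 CPM under depletion (log2 fold change 1.69, SE 0.25, edgeR adjusted p = 1.57e-06). Replicates of these 3 genes lay close together and the groups did not overlap, as held for 4069 of the 7980 tested genes. The scaffold genes npp-10 (Nup98 and Nup96) and npp-3 (Nup205) rose by 1.46 and 1.18 on the log2 scale.

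The gene baf-1, which encodes the DNA-bridging barrier-to-autointegration factor, was listed at 9.55 CPM in control replicate 1, was unlisted in replicate 2, and stood at 55.8 and 72.3 CPM under depletion (log2 fold change 3.64 with SE 0.63 and edgeR adjusted p = 4.8e-05). Its inner membrane partner lem-2, picked after its values were seen, went from 63.7 and 68.4 to 207 and 232 CPM (log2 fold change 1.72, SE 0.31, edgeR adjusted p = 7.58e-05). Outside the list, the SUN-domain gene unc-84 (chromosome X), part of the bridge that ties the nucleus to the cytoskeleton, rose from 73.2 and 74.5 to 253 and 216 CPM (log2 fold change 1.67, SE 0.29, edgeR adjusted p = 5.68e-05). The gene mel-28, also outside it, picked after its values were seen and needed to assemble pores on chromatin, went from 146 and 103 to 342 and 335 CPM (log2 fold change 1.47, SE 0.27, edgeR adjusted p = 0.000127). The lamin gene lmn-1 stood at 331 and 326 CPM in the controls and 417 and 523 CPM under depletion and did not pass (edgeR adjusted p = 0.169). Without control replicate 1, control replicate 2, global replicate 1 or global replicate 2, 11, 8, 9 and 9 genes of the list rose, and 7 rose in all 4 of these fits.

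**Figure D2:**
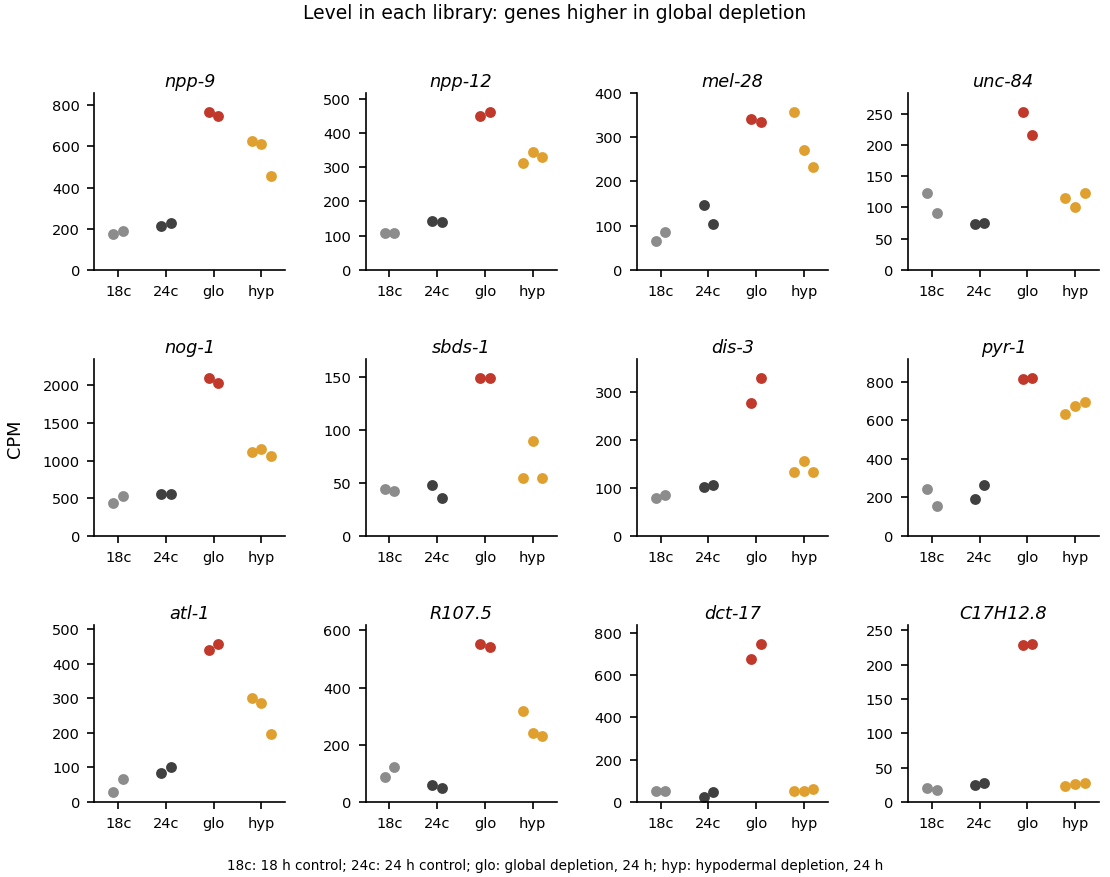
CPM of 12 genes (y axis, linear, from 0) in each of the 9 libraries, grouped as 18 h controls, 24 h controls, global depletion and hypodermal depletion, with 1 point per library. Both global libraries lie above both 24 h controls in every panel, dct-17 and C17H12.8 stay at control level under hypodermal depletion, and npp-9, npp-12, mel-28 and pyr-1 lie above both 24 h controls there as well.

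Some genes for building ribosomes rose, and some of those for the ribosomal proteins fell. Of 46 ribosome biogenesis factors 14 rose (30.4%, against 3.46% of all tested genes). The other 32 did not pass, and the list had a median of 0.72 and 42 estimates above 0. The nucleolar GTPase gene nog-1, needed for the large subunit, stood at 551 and 552 CPM in the controls and 2101 and 2034 CPM under depletion (log2 fold change 1.91 with SE 0.22 and edgeR adjusted p = 4.75e-09). It overlaps rrp-8, another gene of the list that rose in the full fit but not in all 4 fits without 1 library. The gene pro-2, whose nucleolar product helps to process ribosomal RNA, went from 181 and 205 to 485 and 538 CPM (log2 fold change 1.39, SE 0.24, edgeR adjusted p = 3.9e-05). The nucleolar RNA-binding gene puf-12 went from 401 and 340.2 to 779.6 and 829.9 CPM (log2 fold change 1.124, SE 0.22, edgeR adjusted p = 0.00034). Without each library in the order above, 9, 10, 5 and 4 factors rose, and nog-1, pro-2 and puf-12 did so in all 4 fits.

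Further genes of RNA maturation were picked after their values were seen. The gene sbds-1, which acts late in large subunit maturation, rose from 47.8 and 36.2 to 149 and 149.8 CPM (log2 fold change 1.86 with SE 0.36 and edgeR adjusted p = 0.000264), while the hypodermal libraries held 54.4, 89.8 and 54.4 CPM. The exosome ribonuclease genes dis-3 and crn-3, which trim and degrade RNA in the nucleus, went from 102 and 106.7 to 277 and 329.7 CPM and from 98.7 and 70.5 to 239.8 and 251 CPM, changes of 1.54 and 1.57 on the log2 scale. The AAA-ATPase gene mac-1 rose by 1.49. The gene rop-1, which encodes the Ro protein that binds misfolded 5S ribosomal RNA, rose by 1.35 and overlaps akt-1. The histone chaperone gene nap-1 rose from 761 and 898 to 1817 and 2073 CPM (log2 fold change 1.23, SE 0.23, edgeR adjusted p = 0.000142).

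Of 81 cytosolic ribosomal protein genes 14 fell (17.3%, against 5.01% of all tested genes) and 1 rose. Their median was -0.09, and 0.02 with the library total as the only scaling, so that its sign depends on the scaling. The small subunit gene rps-22 went from 1047 and 717 to 411 and 321 CPM (log2 fold change -1.26 with SE 0.23 and edgeR adjusted p = 0.000129). The large subunit gene rpl-26 went from 3511 and 3070.0 to 1759.7 and 1593 CPM (log2 fold change -0.97), and rpl-3 from 4992 and 4622 to 2588 and 2639 CPM (log2 fold change -0.88). The number of falls without each library was 7, 13, 10 and 4. Both depleted libraries held a smaller summed level of these genes (116654 and 113120.0 CPM) than either control (147662 and 130590.0 CPM). The undepleted 18 h controls were as low, at 103823 and 118373 CPM.

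Polymerase subunit genes held rises that depended on single libraries. Of 6 RNA polymerase I subunit genes 3 rose (50%, against 3.46% of all tested genes), of 9 RNA polymerase II subunit genes 2 rose (22.2%, ama-1 and rpb-2, which encode its largest subunits), and none of 8 RNA polymerase III genes passed by edgeR or DESeq2 (3 higher and 0 lower at an unadjusted p below 0.05). The RNA polymerase I and II counts without each library were 0, 2, 0 and 1 and 0, 1, 0 and 2. The subunit gene rpoa-1 stood at 287 and 356 CPM in the controls and 658 and 548 CPM under depletion (log2 fold change 0.90 with SE 0.23 and edgeR adjusted p = 0.00859). Without control replicate 1 or global replicate 1 that call was lost (edgeR adjusted p = 0.134 and 0.179). Among translation genes, 2 of 40 initiation and elongation factors and 1 of 32 aminoacyl-tRNA synthetases (lars-1, for leucine) rose. The lars-1 call was lost in all 4 fits without 1 library (edgeR adjusted p = 0.232, 0.0613, 0.247 and 0.125), and the elongation factor gene eef-2 stood at 11298 and 10780.1 CPM in the controls and 10184 and 7454 CPM under depletion (log2 fold change -0.32, SE 0.20, edgeR adjusted p = 0.387). The pyrimidine gene pyr-1, whose product carries out the opening steps of UMP synthesis, rose from 191 and 262 to 813 and 821 CPM (log2 fold change 1.83, SE 0.24, edgeR adjusted p = 1.15e-07).

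Of 32 apoptosis and DNA damage genes 2 rose (6.25%, against 3.46% of all tested genes). The checkpoint kinase gene atl-1, the worm ATR, went from 82.8 and 103 to 442 and 459 CPM (log2 fold change 2.26 with SE 0.28 and edgeR adjusted p = 4.58e-08). The repair gene rad-50 went from 82.8 and 90.6 to 243 and 238 CPM (log2 fold change 1.46, SE 0.32, edgeR adjusted p = 0.00117). Both held in all 4 fits without 1 library. Of 47 DNA replication and cell cycle genes none passed by edgeR or DESeq2 (2 higher and 1 lower at an unadjusted p below 0.05). The condensin gene mix-1 stood at 162 and 159 CPM in the controls and 169.6 and 187 CPM under depletion.

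All 33 genes of the proteasome list that were tested had log2 fold changes above 0 in the full fit, with a median of 0.64. Of these, 5 rose (15.2%, against 3.46% of all tested genes). They were rpn-11, pbs-5, pas-7, pbs-2 and skn-1, the last being the Nrf-type regulator placed in this list and not a subunit. Without each library 3, 2, 1 and 1 genes of the list rose. The ubiquitin-activating enzyme gene uba-1, picked after its values were seen, rose from 341 and 284 to 904 and 823 CPM (log2 fold change 1.47, SE 0.22, edgeR adjusted p = 4.19e-06). Of 48 spliceosome genes 4 rose, and 1, 3, 0 and 0 without each library. In the full fit the spliceosome rises were 8.33% of that list. The 8 genes of the CCT chaperonin, which folds actin and tubulin, showed no call by edgeR or DESeq2 (0 at an unadjusted p below 0.05).

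Calls among cytosolic chaperone genes were all higher, and those among genes of the endoplasmic reticulum (ER) were nearly all lower. Of 16 cytosolic heat shock protein genes 5 rose (31.2%, against 3.46% of all tested genes). The gene hsp-70 was at 19.1 CPM in control replicate 1, unlisted in replicate 2 and at 97.3 and 89.5 CPM under depletion (log2 fold change 3.37 with SE 0.63 and edgeR adjusted p = 0.00016), and it overlaps uggt-2. The genes hsp-16.41 and hsp-16.2, which encode small chaperones that keep unfolded proteins soluble and have near-identical copies, went from 28.7 and 6.04 to 107.1 and 99.001 CPM and from 38.2 and 46.3 to 148 and 149 CPM (log2 fold changes 2.74 and 1.79). The co-chaperone gene dnj-13 rose from 172 and 145 to 345 and 372 CPM (log2 fold change 1.19, SE 0.26, edgeR adjusted p = 0.00123).

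Proteins bound for secretion enter the ER through the Sec61 channel and its partner, the translocon-associated protein (TRAP) complex. Of 37 ER genes 13 fell (35.1%), 1 rose (cdc-48.2, in none of the fits without 1 library) and 23 did not pass, with a median of -0.51. Of all tested genes 5.01% fell and 3.46% rose. The TRAP subunit gene trap-1 (chromosome I, 2928395 to 2929687) stood at 417 and 238 CPM in the controls and 61.1 and 41.3 CPM under depletion (log2 fold change -2.64 with SE 0.29 and edgeR adjusted p = 2.83e-09). The channel gene sec-61 went from 1340.2 and 1091 to 348 and 247 CPM (log2 fold change -2.02, SE 0.24, edgeR adjusted p = 1.1e-08). Both controls lay far above both depleted libraries for each. The subunit gene trap-3 went from 251 and 145 to 58.8 and 44.8 CPM (log2 fold change -1.90), and trap-2 from 159 and 96.6 to 34.7 and 36.2 CPM (log2 fold change -1.82).

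Genes for folding enzymes fell as well. The protein disulfide isomerase gene pdi-2 went from 1108 and 869.7 to 361 and 294 CPM (log2 fold change -1.59 with SE 0.22 and edgeR adjusted p = 6.7e-07), the GRP94 gene enpl-1 from 1283 and 1268 to 554 and 550.1 CPM (log2 fold change -1.21, SE 0.21, edgeR adjusted p = 5.22e-05) and the BiP gene hsp-3 from 2193 and 1840.0 to 936 and 921 CPM (log2 fold change -1.12, SE 0.21, edgeR adjusted p = 0.000228). The other BiP gene, hsp-4, the classical reporter of the unfolded protein response, stood at 172 and 117 CPM in the controls and 150.03 and 127 CPM under depletion, with overlapping groups (log2 fold change -0.03, SE 0.27, edgeR adjusted p = 0.968). The hypodermal libraries were at 1226, 1189 and 1309 CPM for enpl-1 and 2110.0, 1807 and 1929 CPM for hsp-3, close to the controls, and 13 genes of the list were lower in global than in hypodermal depletion. Without each library 9, 8, 8 and 8 ER genes fell, and 7 did so in all 4 fits. The staphylococcal-nuclease-domain gene tsn-1, chosen after its values were seen, fell from 872 and 759 to 408 and 358 CPM with 807, 787 and 861 CPM in the hypodermal libraries.

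**Figure D3:**
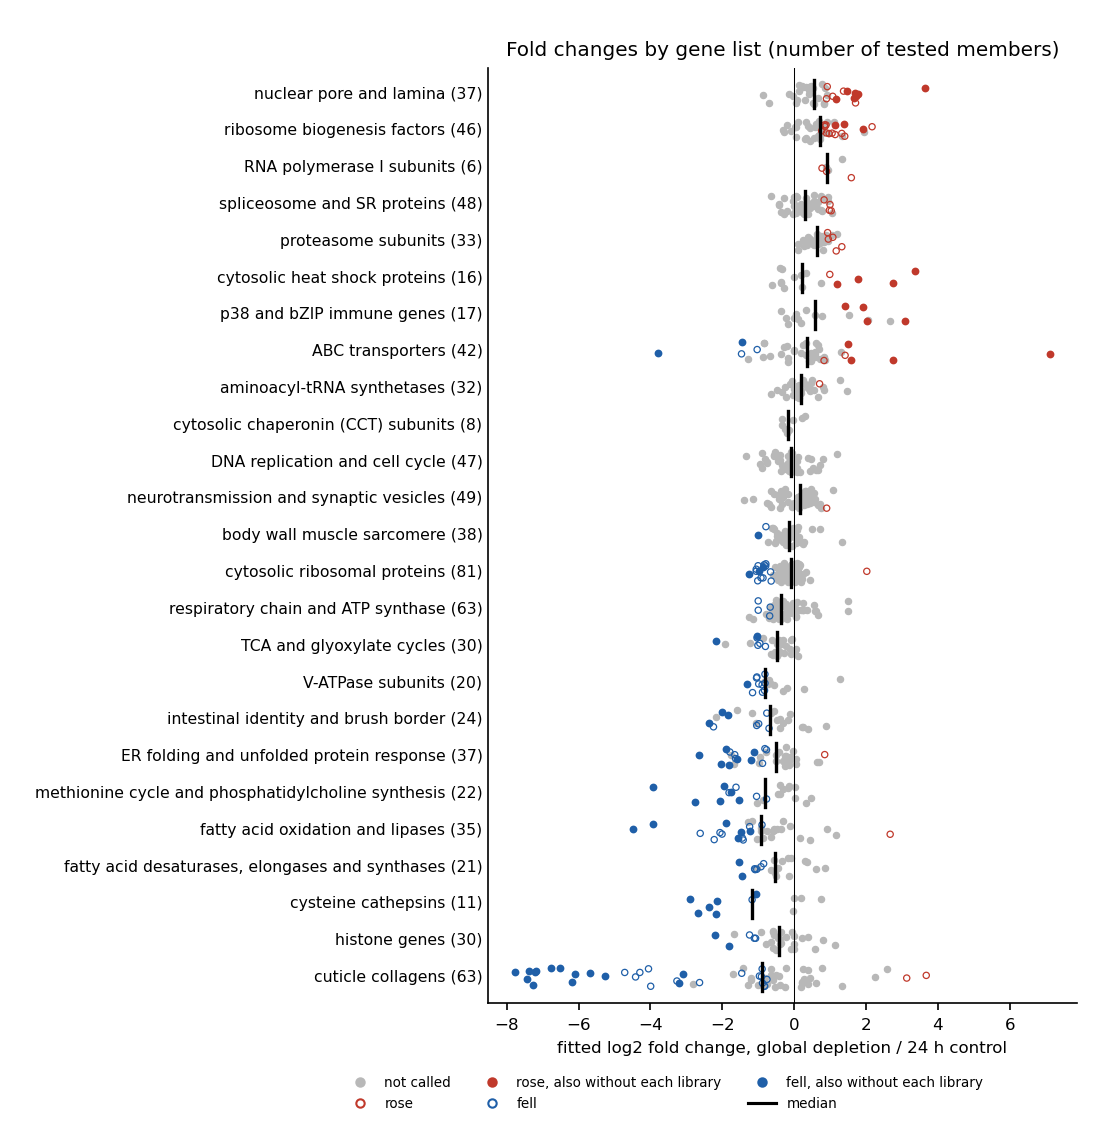
Fitted log2 fold change (x axis) of every tested member of 25 gene lists, 1 point per gene, with the list median as a black bar, filled colours for calls that also passed without each library and open colours for the other calls. The nuclear pore, ribosome biogenesis and proteasome lists lie to the right of 0, and the cathepsin, ER, fatty acid oxidation and methionine lists to the left.

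Digestive and lysosomal enzyme genes fell, and the cysteine cathepsins had the highest share of falls among the 67 gene lists. Of 11 cysteine cathepsin genes 7 fell (63.6%, against 5.01% of all tested genes) and the other 4 did not pass, with a median of -1.17. The cathepsin B-like gene cpr-4 (chromosome V, 6614674 to 6615845) was at 688 and 622 CPM in the controls and 85.9 and 87.8 CPM under depletion (log2 fold change -2.91 with SE 0.24 and edgeR adjusted p = 1.39e-12). The gene cpr-1 went from 774 and 558 to 94.2 and 114 CPM, cpr-5 from 818 and 598 to 169 and 143 CPM and cpr-6 from 366 and 328 to 82.9 and 49.1 CPM (log2 fold changes -2.67, -2.17 and -2.38). No depleted library reached a control for any of these 4 genes. Groups were likewise apart, in either direction, for 4069 of the 7980 tested genes. The 3 hypodermal libraries held 752, 829 and 1039.8 CPM of cpr-4 and 350.1, 367 and 436 CPM of cpr-6, at or above the controls. The cathepsin Z gene cpz-1 and the cathepsin B-like gene F57F5.1 fell too (log2 fold changes -2.14 and -1.07). These genes have close paralogs, and the treatment of reads shared between copies is not given in the sources used here.

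The V-ATPase, which acidifies lysosomes and the gut lumen, had 10 of 20 subunit genes lower (50%, against 5.01% of all tested genes, median -0.81). Its catalytic subunit gene vha-13 went from 2244 and 1782 to 883 and 745 CPM (log2 fold change -1.304 with SE 0.22 and edgeR adjusted p = 2.33e-05). The number of falls depended on single libraries, at 2, 11, 3 and 2 without each in turn, and vha-13 held in all 4 fits. Of 10 aspartyl protease genes 4 fell, 1, 3, 1 and 2 without each library, with asp-12 from 162 and 129 to 28.6 and 46.5 CPM (log2 fold change -1.95, SE 0.38, edgeR adjusted p = 0.000304). The most abundant, asp-1, stood at 8891 and 6635 CPM in the controls and 6305 and 5504 CPM under depletion and did not pass (edgeR adjusted p = 0.309). Of 35 other autophagy and lysosome genes 1 fell (lmp-1) and 1 rose (bec-1), each call ending in at least 2 of the fits without 1 library.

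Markers of the intestine itself were among the falls. Of 24 intestinal identity and brush border genes 8 fell (33.3%, against 5.01% of all tested genes, median -0.67). The summed level of the list was 22892 and 17838 CPM in the controls, 14523 and 13364 CPM under global and 16504, 16118 and 22381 CPM under hypodermal depletion. All 25 markers were listed in at least 2 of the 4 libraries. In whole animals fewer intestinal cells and less RNA per cell cannot be told apart, and the part of this list in the other falls was not tested. The peptide transporter gene pept-1, which takes up dietary peptides at the gut surface, went from 621 and 648 to 185 and 132 CPM (log2 fold change -2.001 with SE 0.25 and edgeR adjusted p = 4.65e-08). The gut acid phosphatase gene pho-1 fell from 194 and 105 to 30.9 and 49.9 CPM (log2 fold change -1.85) and overlaps EGAP2.1. Falls in the list without each library numbered 4, 8, 6 and 4.

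Other genes with the same profile, low in global depletion and at control level in hypodermal depletion, were picked after their values were seen. Y39B6A.1 stood at 681 and 576 CPM in the controls, 115 and 114 CPM in global and 851, 658 and 1028 CPM in hypodermal depletion (log2 fold change -2.45 with SE 0.25 and edgeR adjusted p = 2.35e-10 against the controls). The neighbouring genes gfi-1 and F57F4.4, similar enough that reads could be split between them, went from 1849.6 and 1135 to 470.5 and 306 CPM and from 1764 and 1311 to 458 and 381 CPM (log2 fold changes -1.93 and -1.87). Y16B4A.2 went from 1047 and 898 to 308 and 240.2 CPM (log2 fold change -1.82). Each of these 4 genes was lower in global than in hypodermal depletion, with log2 differences of -2.88, -1.71, -1.80 and -1.95.

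Genes for the breakdown of propionate fell. Worms can clear this short-chain acid by the vitamin B12-dependent route through propionyl-CoA carboxylase and methylmalonyl-CoA mutase, or by a B12-independent shunt that is switched on when B12 is scarce. Of the 5 shunt genes, grouped after their values were seen, 4 fell in the full fit and without each library. The shunt's opening enzyme gene acdh-1 (chromosome I, 6497436 to 6499560), an acyl-CoA dehydrogenase, stood at 709.9 and 682 CPM in the controls and 39.96 and 51.7 CPM under depletion (log2 fold change -3.93 with SE 0.26 and edgeR adjusted p = 1.96e-15). The hydroxyacid transhydrogenase gene hphd-1 went from 322 and 259.7 to 36.2 and 49.1 CPM (log2 fold change -2.76, SE 0.28, edgeR adjusted p = 2.65e-10). The hydrolase gene hach-1 went from 191 and 123 to 33.9 and 37.9 CPM and the hydratase gene ech-6 from 229 and 234 to 76.9 and 79.2 CPM (log2 fold changes -2.0997 and -1.57). Controls and depleted libraries did not overlap for any of the 4, a separation also found for 4069 of the 7980 tested genes. For acdh-1 the hypodermal libraries lay between the controls and the global libraries, at 293, 332 and 416 CPM. The last shunt enzyme gene, alh-8, stood at 1413 and 1343 CPM in the controls and 1344 and 1128 CPM under depletion (log2 fold change -0.16, SE 0.21, edgeR adjusted p = 0.739).

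None of the 4 genes of the B12-dependent route, also grouped after their values were seen, passed. The carboxylase genes pcca-1 and pccb-1, the epimerase gene mce-1 and the mutase gene mmcm-1 had log2 fold changes of -0.40, -0.45, -1.24 and -0.14 (edgeR adjusted p = 0.331, 0.235, 0.115 and 0.818). The shunt's transcriptional activator genes nhr-10 and nhr-68 did not pass (log2 fold changes -0.63 and -0.91), with 19.1 and 40.3 CPM of nhr-10 in the controls and 21.9 and 18.1 CPM under depletion. The transporter gene pmp-5, whose human homologue ABCD4 moves B12 out of lysosomes, fell from 166 and 274 to 19.6 and 12.05 CPM (log2 fold change -3.79 with SE 0.35 and edgeR adjusted p = 2.51e-11), and the B12 exporter gene mrp-5 stood at 309 and 246 CPM in the controls and 251 and 229.9 CPM under depletion (log2 fold change -0.19, SE 0.24, edgeR adjusted p = 0.704).

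The methionine cycle supplies methyl groups through S-adenosylmethionine and shares B12 with the canonical route. Of 7 tested enzyme genes of the cycle and of linked folate steps, grouped after their values were seen, 6 fell. Not all of these calls held when single libraries were left out. The methionine synthase gene metr-1 went from 1009 and 944 to 283 and 183 CPM (log2 fold change -2.07 with SE 0.23 and edgeR adjusted p = 2.83e-09). The S-adenosylmethionine synthetase gene sams-1 went from 1716 and 1206 to 397 and 349 CPM (log2 fold change -1.96, SE 0.23, edgeR adjusted p = 7.69e-09). The reductase genes mtrr-1, which reactivates methionine synthase, and mthf-1, which makes its folate substrate, fell too (log2 fold changes -1.76 and -1.53). The nuclear receptor gene nhr-114, which raises methionine cycle genes when the cycle runs low, fell from 185 and 181 to 60.3 and 61.98 CPM (log2 fold change -1.58, SE 0.33, edgeR adjusted p = 0.000825). Of 22 genes in the wider list with phosphatidylcholine synthesis 10 fell, acdh-1 and hphd-1 included, and 7, 9, 6 and 8 without each library. Of that wider list 45.5% fell in the full fit, against 5.01% of all tested genes. The phosphoethanolamine methyltransferase gene pmt-1 stood at 560.3 and 507.3 CPM in the controls and 560.2 and 531 CPM under depletion and did not pass (edgeR adjusted p = 0.955).

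**Figure D4:**
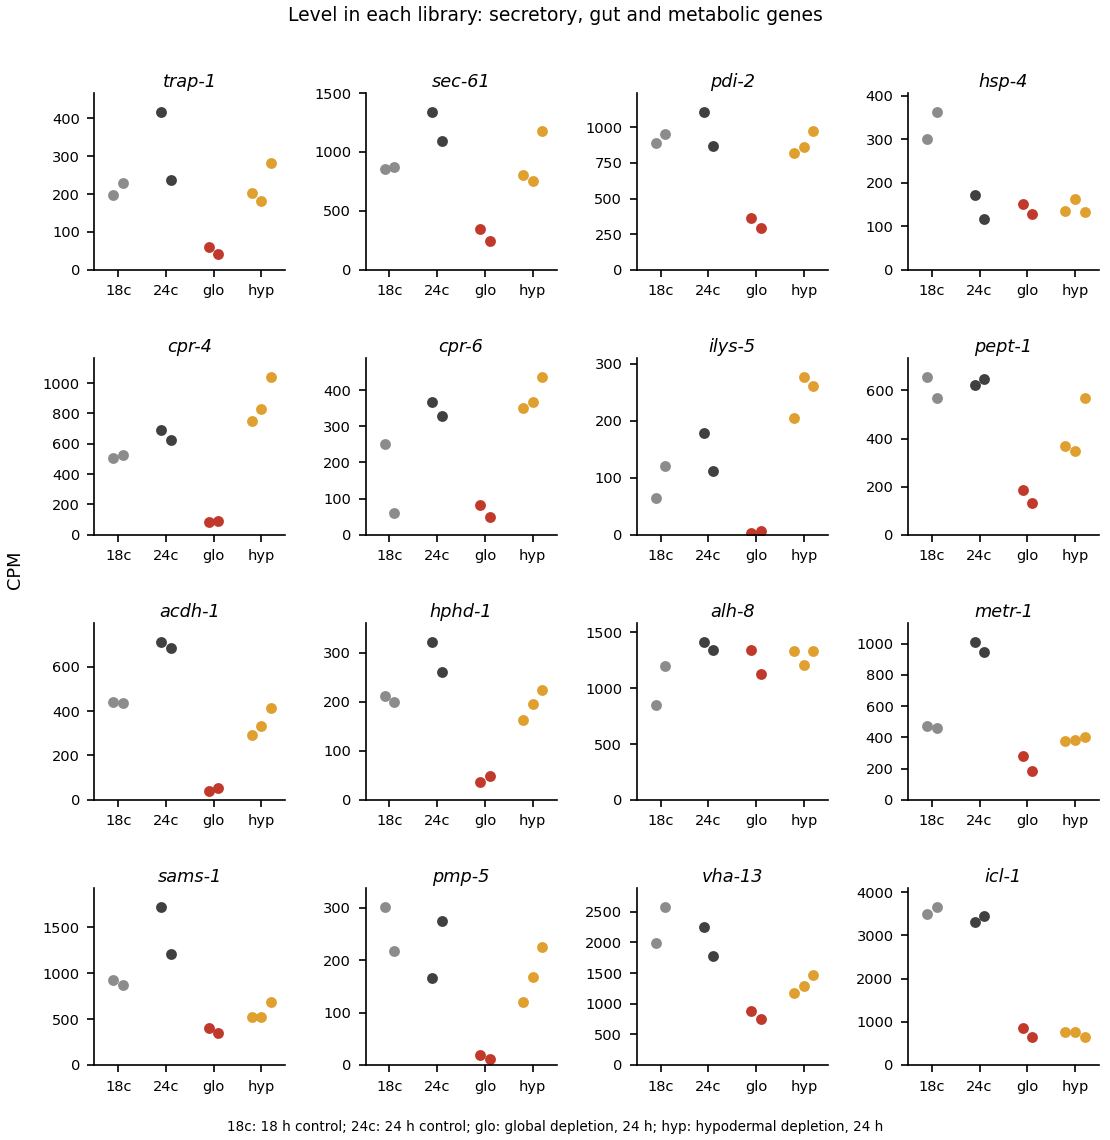
CPM of 16 secretory, gut and metabolic genes (y axis, linear, from 0) in each of the 9 libraries, grouped as 18 h controls, 24 h controls, global depletion and hypodermal depletion, with 1 point per library. The global libraries are lowest for trap-1, cpr-4, ilys-5, acdh-1 and pmp-5, hsp-4 and alh-8 do not separate global depletion from the 24 h controls, and icl-1 is as low in hypodermal as in global depletion.

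Genes for using fat made up a larger set of falls. In the fatty acid oxidation and lipase list 14 of 35 tested genes fell (40%), 1 rose (1, 0, 0 and 0 without each library), and the median was -0.93. Of all tested genes 5.01% fell and 3.46% rose. The acyl-CoA synthetase gene acs-2 went from 166 and 117 to 3.77 and 8.61 CPM (log2 fold change -4.49 with SE 0.49 and edgeR adjusted p = 1.46e-09). The carnitine palmitoyltransferase gene cpt-1, which admits fatty acids to mitochondria, went from 709.9 and 654 to 302 and 274 CPM (log2 fold change -1.24, SE 0.23, edgeR adjusted p = 0.000127). For both, hypodermal depletion gave similar levels, 4.33, 4.69 and 9.06 CPM for acs-2 and 302, 237 and 207 CPM for cpt-1. The acyl-CoA dehydrogenase genes acdh-10 and acdh-7 fell (log2 fold changes -1.91 and -1.49). Falls without each library numbered 10, 9, 8 and 8.

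Of 21 genes of fatty acid elongation, desaturation and synthesis 7 fell, 4, 5, 3 and 2 without each library. In the full fit the falls were 33.3% of this list, against 5.01% of all tested genes. The elongase gene elo-1 of the polyunsaturated series went from 446 and 382 to 158 and 145 CPM (log2 fold change -1.44 with SE 0.24 and edgeR adjusted p = 2.24e-05). The branched-chain elongase gene elo-6 went from 124 and 155 to 41.5 and 56.8 CPM (log2 fold change -1.52, SE 0.31, edgeR adjusted p = 0.000452), while hypodermal depletion held it at 229.7, 208 and 306 CPM. The lipin gene lpin-1, a phosphatidate phosphatase chosen after its values were seen, fell from 455 and 513 to 188 and 158 CPM (log2 fold change -1.48, SE 0.24, edgeR adjusted p = 1.02e-05). The Max-like regulator gene mxl-3, which holds down lipase genes in fed worms, fell from 232 and 254 to 43.7 and 55.1 CPM (log2 fold change -2.302, SE 0.30, edgeR adjusted p = 1.06e-07).

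In central carbon metabolism, 6 of 30 tricarboxylic acid and glyoxylate cycle genes fell (20%, against 5.01% of all tested genes). Of 20 glycolysis and gluconeogenesis genes 3 fell (15%). The glyoxylate cycle gene icl-1, with which worms turn fat into sugar, went from 3308 and 3450.4 to 846 and 650.0 CPM (log2 fold change -2.18 with SE 0.22 and edgeR adjusted p = 1.52e-10). Hypodermal depletion brought icl-1 to the same range, 756, 763 and 645 CPM. The aconitase gene aco-1, the aldolase gene aldo-2 and the pyruvate carboxylase gene pyc-1 fell (log2 fold changes -1.04, -1.16 and -1.26). The mitochondrial pyruvate carrier gene mpc-1 and the glutamine synthetase gene gln-3, chosen after their values were seen, fell too (log2 fold changes -1.67 and -1.73). The tricarboxylic acid falls numbered 2, 6, 6 and 2 without each library.

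The largest fall among amino acid genes was in proline synthesis. The gene alh-13 (chromosome X, 12782411 to 12787144), whose product makes the proline precursor pyrroline-5-carboxylate, was at 63.7 and 48.3 CPM in the controls, at 3.02 CPM in global replicate 1 and unlisted in replicate 2 (log2 fold change -4.69 with SE 0.65 and edgeR adjusted p = 5.67e-07). Hypodermal depletion left it at 53.0, 71.0 and 44.02 CPM. It overlaps nhr-27. In all 4 of 26 genes of the amino acid list fell, 2, 5, 4 and 3 without each library.

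Called falls among genes of the respiratory chain were about as frequent as among all genes, though most estimates were below 0. Of 63 estimates 16 were above 0, and 11 genes were lower and 0 higher at an unadjusted edgeR p below 0.05. The summed level of the list was 34722 and 27414 CPM in the controls and 22204 and 18410 CPM under depletion. Of 63 respiratory chain and ATP synthase genes 4 fell (6.35%, against 5.01% of all tested genes, median -0.37) and of 67 mitochondrial ribosomal protein genes 1 rose (mrpl-45) and 1 fell (mrpl-12). The mrpl-12 call was lost in all 4 fits without 1 library (edgeR adjusted p = 0.174, 0.0731, 0.186 and 0.17), and mrpl-45 did not hold in all 4 either. The respiratory falls rested on single libraries, at 2, 3, 3 and 0 without each. The ATP synthase gene atp-2 went from 7535 and 7130.4 to 4503 and 2827 CPM (log2 fold change -1.0001 with SE 0.22 and edgeR adjusted p = 0.00108). Without global replicate 2 that call was lost (edgeR adjusted p = 0.143). The mitochondrial stress chaperone genes hsp-6 and hsp-60 did not pass by edgeR (adjusted p = 0.75 and 0.0714), though hsp-60 did by DESeq2 (adjusted p = 0.0282), at 2298 and 2595 CPM in the controls and 1734 and 1527 CPM under depletion. Of 10 peroxisome biogenesis genes and 7 lipid binding protein genes, none passed by edgeR or DESeq2, with 1 and 1 lower at an unadjusted p below 0.05.

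Detoxification genes went both ways. The glutathione transferase gene gst-24, a common readout of the Nrf-type factor SKN-1, went from 63.7 and 54.4 to 1028 and 967 CPM (log2 fold change 4.09 with SE 0.29 and edgeR adjusted p = 8.49e-15). The gene gst-38 was at 12.7 CPM in control replicate 1, unlisted in replicate 2 and at 58.1 and 77.5 CPM under depletion (log2 fold change 3.39, SE 0.66, edgeR adjusted p = 0.000272). The gene gst-28 fell from 41.4 and 36.2 to 5.28 and 5.17 CPM (log2 fold change -2.85, SE 0.63, edgeR adjusted p = 0.00136). In all 2 of 29 glutathione transferase genes rose (6.9%) and 3 fell (10.3%), against 3.46% and 5.01% of all tested genes. Some of these falls were lost when single libraries were left out. The skn-1 mRNA stood at 121 and 177 CPM in the controls and 286 and 300.4 CPM under depletion (log2 fold change 0.95 with SE 0.25 and edgeR adjusted p = 0.00954), and it overlaps csn-5 and clec-178. Without control replicate 1, global replicate 1 or global replicate 2 that call was lost (edgeR adjusted p = 0.167, 0.0737 and 0.106).

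Of 34 cytochrome P450 genes 4 rose (11.8%, against 3.46% of all tested genes), and of 41 UDP-glucuronosyltransferase genes 3 rose (7.32%). Both counts depended on single libraries. The gene ugt-44 went from 22.3 and 22.1 to 132 and 93.0 CPM (log2 fold change 2.34 with SE 0.44 and edgeR adjusted p = 0.000157). Of 42 ABC transporter genes 6 rose (14.3%) and 4 fell (9.52%), against 3.46% and 5.01% of all tested genes. Some of these calls were lost when single libraries were left out. The P-glycoprotein genes pgp-1 and pgp-9 went from 92.3 and 84.6 to 570.0 and 622 CPM and from 115 and 82.5 to 271 and 273 CPM, and the multidrug resistance gene mrp-2 from 162 and 203 to 561 and 553 CPM. The log2 fold changes of these 3 efflux pump genes were 2.76, 1.49 and 1.59. Hypodermal depletion held 514, 524 and 684 CPM of pgp-1 and 736, 825 and 650 CPM of mrp-2. For pgp-9 it held 160, 156 and 163 CPM. The ABC transporter gene haf-4 of the gut's lysosome-related granules fell from 723 and 656 to 271 and 232 CPM (log2 fold change -1.45, SE 0.23, edgeR adjusted p = 1.22e-05). Of 27 antioxidant genes, skn-1 rose and 5 fell, 1, 4, 2 and 2 without each library.

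Immune effector genes rose in part and fell in part. Of 17 genes known to depend on the p38 or bZIP immune pathways 4 rose (23.5%, against 3.46% of all tested genes). C17H12.8 (chromosome IV, 6818606 to 6820643) went from 25.5 and 28.2 to 228 and 231 CPM (log2 fold change 3.08 with SE 0.36 and edgeR adjusted p = 1.15e-08). The CUB-domain gene irg-4 went from 219.7 and 215 to 811 and 836 CPM (log2 fold change 1.92, SE 0.25, edgeR adjusted p = 1.1e-07), and the lysozyme gene lys-2 from 121 and 92.6 to 416 and 444 CPM (log2 fold change 2.03, SE 0.27, edgeR adjusted p = 2.91e-07). In hypodermal depletion C17H12.8 stood at 22.6, 26.1 and 27.2 CPM, irg-4 at 184, 237 and 255 CPM and lys-2 at 105, 147 and 151.5 CPM, near the controls. The lectin gene clec-67 rose from 404 and 350.3 to 1079.6 and 929 CPM (log2 fold change 1.42, SE 0.23, edgeR adjusted p = 1.3e-05), while the hypodermal libraries lay below the controls at 147, 133 and 175 CPM. All 7 genes of the list that differed between the depletions were higher in the global one.

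Against these, the invertebrate-type lysozyme gene ilys-5 (chromosome X, 6533493 to 6536840) fell from 178 and 113 CPM to 3.02 and 6.89 CPM (log2 fold change -4.84 with SE 0.43 and edgeR adjusted p = 6.14e-12), and stood at 204, 277 and 260.3 CPM in hypodermal depletion. Of 20 lysozyme and saposin-like genes 2 rose (10%) and 4 fell (20%), against 3.46% and 5.01% of all tested genes. Of 42 C-type lectin genes 5 rose (11.9%) and 6 fell (14.3%). The lectin gene clec-265 rose from 54.1 and 64.4 to 214 and 272 CPM (log2 fold change 2.02, SE 0.37, edgeR adjusted p = 0.000129) and clec-42 fell from 121 and 72.5 to 20.4 and 12.05 CPM (log2 fold change -2.52, SE 0.42, edgeR adjusted p = 2.7e-05). The lectin gene clec-180 was unlisted in both depleted libraries and at least 11.8-fold lower, a call lost after thinning to 324321 counts (edgeR adjusted p = 0.0509). Lectin rises without each library numbered 3, 2, 3 and 2 and lectin falls 6, 3, 2 and 2, and lysozyme rises and falls 2, 1, 1 and 1 and 2, 3, 3 and 2. Of 9 intracellular pathogen response genes none passed by edgeR or DESeq2 (1 higher at an unadjusted p below 0.05).

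Falls in the muscle and pharynx lists were as frequent as among all tested genes (5.01%). Of 38 body wall muscle genes 2 fell (5.26%), with the troponin T gene mup-2 going from 1725 and 2106 to 988 and 932 CPM (log2 fold change -0.998 with SE 0.21 and edgeR adjusted p = 0.000692), while the myosin heavy chain gene unc-54 stood at 10006 and 12670.4 CPM in the controls and 11455 and 10211 CPM under depletion (log2 fold change -0.07, SE 0.21, edgeR adjusted p = 0.9). Of 60 pharyngeal genes 3 fell (5%) and 1 rose, with pqn-32 going from 47.8 and 58.4 to 6.03 and 5.17 CPM (log2 fold change -3.22, SE 0.61, edgeR adjusted p = 0.000209). Of 49 neurotransmission genes 1 rose, of 57 neuropeptide and insulin-like genes 2 fell, and of 26 ciliated neuron genes and 21 germline genes none passed by edgeR or DESeq2 (3 and 1 higher, 0 and 2 lower at an unadjusted p below 0.05). The hypodermal junction and regulator list had 2 falls among 21 genes. Without each library the falls numbered 1, 2, 2 and 1 for muscle, 2, 3, 2 and 1 for the pharynx, 0, 2, 1 and 0 for neuropeptides and 1, 0, 0 and 0 for the hypodermal list, and the neurotransmission rise was lost in all 4 fits. Summed levels of the muscle list were 55806 and 67256 CPM in the controls and 57649 and 51883 CPM under depletion. Those of the neurotransmission list were 8006 and 9413 and 10132 and 9393 CPM. In both lists the groups overlapped, unlike in the intestinal list. Lower sums were not particular to the intestine. The hypodermal junction and regulator list had 11355.5 and 14067.5 CPM in the controls and 10598 and 9177 CPM under depletion. Its most abundant gene, let-805, alone held 4976 and 6063 CPM in the controls and 3720 and 3063 CPM under depletion. The median log2 fold change of that list was -0.05. For the coelomocyte, excretory and glia list the sums were 1028 and 841 and 720 and 785 CPM. The ciliated neuron and germline sums were higher under depletion (from 583 and 825 to 887 and 850 CPM, and from 885 and 938 to 1043 and 979 CPM). These sums take unlisted genes as 0, and more genes were listed in the deeper depleted libraries. Ciliated neuron genes listed numbered 18 and 34 in the controls and 48 and 42 under depletion. Germline genes listed numbered 18 and 24 in the controls and 35 and 33 under depletion. The part of depth in the higher sums was not tested.

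Of 111 nuclear hormone receptor genes 3 rose and 2 fell (2, 1, 1 and 0 rises and 2, 2, 1 and 1 falls without each library), and of 27 transthyretin-like genes none passed by edgeR or DESeq2 (1 higher and 2 lower at an unadjusted p below 0.05). In the full fit receptor rises and falls were 2.7% and 1.8% of that list, below the 3.46% and 5.01% of all tested genes. Of 6 yolk genes 1 was listed in at least 2 of the 4 libraries, and none was tested. The linker histone genes his-24 and hil-3, whose products compact chromatin, fell, his-24 from 366 and 308 to 84.4 and 108.5 CPM (log2 fold change -1.80 with SE 0.26 and edgeR adjusted p = 1.36e-06) and hil-3 from 204 and 199 to 42.97 and 44.8 CPM (log2 fold change -2.196, SE 0.32, edgeR adjusted p = 1.64e-06). Both were as low in hypodermal depletion, at 106, 106.5 and 89.3 CPM for his-24 and 38.5, 38.2 and 25.9 CPM for hil-3. Histone falls in the full fit were 16.7% of that list, against 5.01% of all tested genes. In all 5 of 30 histone genes fell, 5, 3, 2 and 2 without each library.

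Cuticle genes fell too. The collagens held 29 falls (46%) and 2 rises (3.17%) among 63 tested. Falls numbered 16 among 48 in the molting and apical matrix list (33.3%) and 9 among 31 in the hedgehog- and patched-related list (29%). Of all tested genes 5.01% fell and 3.46% rose. Collagen falls without each library numbered 24, 21, 19 and 17, molting and matrix falls 14, 15, 13 and 12, and hedgehog- and patched-related falls 7, 9, 6 and 5. Beyond these lists, 4 lipocalin-related genes that lie next to each other on chromosome X fell, the apical matrix gene lpr-3 and its neighbours lpr-4, lpr-5 and lpr-6, within 11057401 to 11066811. The gene lpr-5 was at 63.7 and 42.3 CPM in the controls and unlisted under depletion, at least 21.9-fold lower. Without control replicate 2 the call for lpr-6 was lost (edgeR adjusted p = 0.0855), as it was with unlisted counts entered as 0 (0.0614). The call for lpr-4 was lost after thinning (edgeR adjusted p = 0.101) and with unlisted counts entered as 0 (0.119). Of 8 tested cadherin genes of the cdh family 3 fell, with a median of -2.40, among them cdh-12, from 76.4 and 117 to 16.6 and 18.1 CPM (log2 fold change -2.50 with SE 0.47 and edgeR adjusted p = 0.000205). Other large falls were in W03D8.8, H03E18.1, ZK1025.3, T17H7.1 and C34F6.1, which were unlisted in both depleted libraries and at least 19.5-, 17.03-, 11.1-, 10.6- and 10.4-fold lower. H42K12.3 fell as well (log2 fold change -4.87, SE 0.75, edgeR adjusted p = 5.44e-06). The calls for C34F6.1, T17H7.1 and ZK1025.3 were lost when the 4 compared libraries were thinned to 324321 counts (edgeR adjusted p = 0.0743, 0.0713 and 0.0875). Those for T17H7.1 and ZK1025.3 were also lost with unlisted counts entered as 0 (edgeR adjusted p = 0.0542 and 0.0579).

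Direct comparison of the depletions showed where the global one went beyond the hypodermal one. The contrast does not use the control levels, but the controls entered the shared fit, its filter, scaling and spread. In all 344 genes differed (4.31%), with 114 higher (1.43%) and 230 lower (2.88%) in global depletion, and with the library total as the only scaling 156 and 197. Lower in global depletion were 7 of 11 cathepsin genes, 13 of 37 ER genes, 12 of 35 fatty acid oxidation genes, 9 of 20 lysozyme and saposin genes and 6 of 22 methionine and phosphatidylcholine genes. For cpr-4 the global libraries were lower (log2 difference -3.32, SE 0.23, edgeR adjusted p = 3.38e-15), for ilys-5 likewise (log2 difference -5.63, SE 0.38, edgeR adjusted p = 2.14e-15) and for acdh-1 likewise (log2 difference -2.91, SE 0.24, edgeR adjusted p = 1.16e-12). Higher were 7 of 17 p38 and bZIP immune genes and 3 of 46 ribosome biogenesis factors. For dct-17 the log2 difference was 3.68 (SE 0.22, edgeR adjusted p = 3.57e-17). Of 37 nuclear pore and lamina genes, 33 proteasome genes and 30 tricarboxylic acid and glyoxylate cycle genes, none passed this test by edgeR, which does not show that both depletions act alike. For npp-9 the log2 difference was 0.42 (SE 0.19, edgeR adjusted p = 0.293).

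Called genes were unevenly spread over the chromosomes. On the X chromosome 16 of 1130 tested genes rose (1.42%) and 90 fell (7.96%), while on the autosomes 260 of 6840 rose (3.80%) and 310 fell (4.53%). The median log2 fold change was -0.15 on X and 0.03 on the autosomes, and -0.05 and 0.14 with the library total as the only scaling. Without the cuticle lists X had 15 rises and 78 falls among 1104 genes. Without control replicate 1, control replicate 2, global replicate 1 or global replicate 2, X had 9, 9, 9 and 6 rises and 51, 68, 53 and 36 falls. Falls on X outside the cuticle lists included ilys-5, alh-13, sams-1, cpr-6, pept-1 and pdi-2, and rises included pgp-8, mrp-2 and unc-84. Genes of a chromosome are not independent samples, so this is a description of these libraries with no test.

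**Figure D5:**
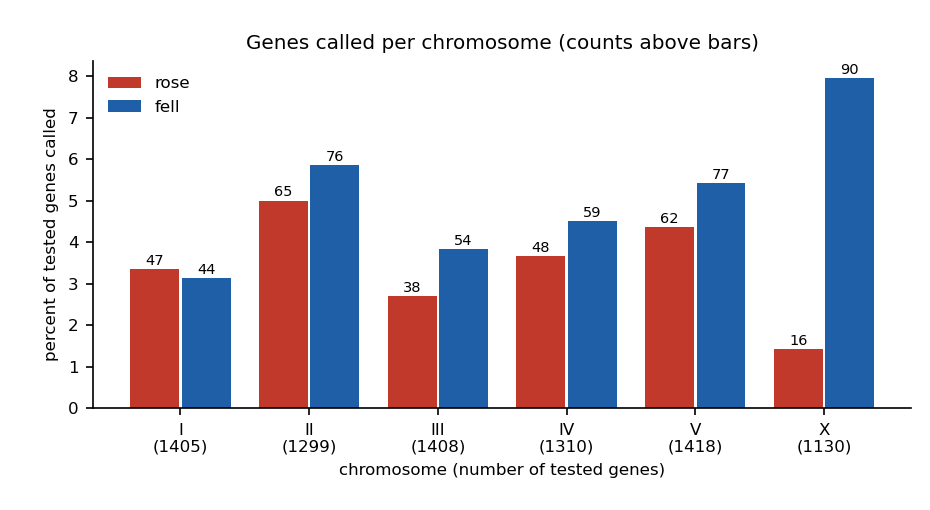
Percent of the tested genes of each chromosome that rose or fell at an edgeR adjusted p below 0.05 (y axis, from 0), with the number of genes above each bar and the number tested under each name. Of the 6 nuclear chromosomes, X has the lowest percent of rises, 1.42, and the highest percent of falls, 7.96.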

How the data were processed

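RNA from whole C. elegans was prepared, per the labels' protocols, with Trizol, depleted of ribosomal RNA with RNase H and made into libraries with a SMARTER kit. The authors deposited 1 table of raw counts per gene and library over coding sequences, with no count under 3. The submitters' processing notes name WBcel235 and DESeq2, while the sources used here name no aligner, counter or strand setting. The table holds 10 libraries, of which 1 matches no sample and was not used.

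The 9 libraries (3 groups at 24 h and 1 at 18 h) were fitted together in R 4.3.3 with edgeR 4.0.16 and limma 3.58.1, with a term per group, TMM scaling and a robust quasi-likelihood test. Unlisted counts entered as 1, genes were filtered at a minimum count of 10 and a total of 15, and p-values were adjusted by Benjamini-Hochberg over 8035 genes, 55 of them listed in fewer than 2 of the 4 libraries compared. The code was tested on simulated data. DESeq2 1.42.0, other scalings, filters, entries for unlisted counts, thinning, a replicate block and leaving out each library were the alternatives. Thinning brought the 4 compared libraries to 324321 counts and left the others at full depth. Counts limit precision at the shallow controls, and molecules were not told apart from copies, so floors cover counting error only.

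The comparison, the 67 gene lists and the tests were chosen with earlier results of these data known. Named genes were rpoa-2, the 12 largest rises and falls outside cuticle and histone genes that passed in every leave-one-out fit at 10 CPM or more without overlap, up to 4 such members of each list by adjusted p (or its most abundant members), and up to 2 of each symbol family with 8 tested genes. Genes said to be chosen after their values were seen, those of the propionate and methionine groups, lem-2, mel-28, F35D11.4, npp-3, lmn-1, mrp-5, nhr-10, nhr-68, pmt-1, trap-2, enpl-1, hsp-3, hsp-4, haf-4, pgp-9, cpt-1, acdh-7, cpz-1, F57F5.1, the lpr genes and the members named beside small counts fall outside this rule.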

Additional observations from a re-analysis of the deposited data

Results flagged for a closer look

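For 78 of the 222 named genes the changes under global and under hypodermal depletion differed. The measure was the edgeR contrast of one depletion against the other at an adjusted p below 0.05 over all tested genes. That contrast passed for 344 of all 7980 tested genes (4.31%). The named genes were mostly picked by their values in the same global libraries, so a larger share among them was built in. Values below are log2 differences, global minus hypodermal, and no cause of any of them was tested.

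Among the largest rises outside the cuticle, global depletion was higher for dct-17 (3.68), M01G12.9 (3.48), ZK938.3 (3.42), K11H12.4 (2.73), F35D11.4 (2.25), F08G2.5 (2.07), ZK1055.7 (1.28), ZK1055.6 (1.116) and R107.5 (1.05). It was also higher for the immune genes C17H12.8 (3.19), clec-265 (2.81), clec-67 (2.74), irg-4 (1.88) and lys-2 (1.69). Detoxification genes higher in global depletion were gst-38 (2.95), gst-24 (1.22), ugt-44 (1.57), pgp-8 (1.115) and pgp-9 (0.77). Chaperone genes were hsp-70 (2.01) and hsp-16.2 (1.19). Genes of the nucleus and of ribosome building were sbds-1 (1.16), dis-3 (1.105), unc-84 (1.06), nog-1 (0.90), pro-2 (0.85) and atl-1 (0.77), and the heme-related gene hrg-7 stood at 0.68.

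Lower in global depletion were the hydrolase and defence genes ilys-5 (-5.63), clec-180 (-3.50), cpr-4 (-3.32), cpr-1 (-3.15), cpr-6 (-2.53), cpr-5 (-2.303), cpz-1 (-1.22), pho-1 (-1.21) and F57F5.1 (-1.01). Transport and pump genes were pmp-5 (-3.38), pept-1 (-1.42), haf-4 (-1.28) and vha-13 (-0.69). Secretory genes were trap-1 (-2.09), trap-2 (-1.95), trap-3 (-1.77), sec-61 (-1.61), pdi-2 (-1.43), enpl-1 (-1.17), hsp-3 (-1.07) and tsn-1 (-1.09). Propionate and methionine genes were acdh-1 (-2.91), hphd-1 (-2.18), hach-1 (-1.71), ech-6 (-1.23), mtrr-1 (-1.41), nhr-114 (-1.05), mthf-1 (-0.97) and metr-1 (-0.74).

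Lipid and amino acid genes lower in global depletion were alh-13 (-4.73), elo-6 (-2.33), dhs-28 (-1.56), gln-3 (-1.39), acdh-7 (-1.36), acdh-10 (-1.33), hpo-8 (-1.28) and lbp-6 (-0.90). Others were W03D8.8 (-3.78), gst-28 (-2.24), Y39B6A.1 (-2.88), Y16B4A.2 (-1.95), F57F4.4 (-1.80), gfi-1 (-1.71) and rpl-3 (-0.74). Apical matrix and hedgehog- or patched-related genes were qua-1 (-3.19), sym-1 (-2.52), noah-1 (-2.22), ptr-4 (-2.13), noah-2 (-2.101) and mlt-11 (-1.80). Against the 24 h controls lbp-6 did not pass (edgeR adjusted p = 0.333), and hrg-7 and dhs-28 lost their calls in all 4 fits without 1 library.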

How the results depend on the processing

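Against 676 calls by edgeR, 514 to 751 were made under each alternative that kept all libraries. DESeq2 made 577, the replicate number as a block gave 602, and thinning the 4 compared libraries to 324321 counts gave 514. Entering unlisted counts as 0 gave 249 falls in place of 400, and 285 rises in place of 276. Leaving out 1 library gave 292 to 501 calls in all, 121 to 180 rises and 171 to 321 falls. The number was 387 without control replicate 1, 360 without global replicate 1 and 292 without global replicate 2. The block gave 245 rises and 357 falls. The replicate numbers were not used to pair the samples in the main fit, since no label ties them to a shared culture. The deviations of same-numbered libraries from their group means had a correlation of -0.0007, which does not settle whether the samples were paired. Among the 158 named genes that passed, 12 lost their call after thinning, 8 with unlisted counts at 0, 4 with the library total as the scaling and 4 by DESeq2. Without control replicate 1, control replicate 2, global replicate 1 or global replicate 2 the losses were 17, 8, 12 and 17. No call of a named gene changed direction under any alternative run. The X chromosome without the cuticle lists, an alternative chosen after seeing the data, held 15 rises and 78 falls. With 324321 counts in the shallower control, a gene under about 9.55 CPM there cannot be told from an unlisted one, and small changes of weak genes were not detectable at this depth.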
